A study of Mus musculus with 8 samples.

Results

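The nuclear-encoded subunits of the respiratory chain and of ATP synthase, with the assembly factors and relatives that share their gene symbols, were followed across mouse brain, kidney and liver after exposure to lead. The set was chosen with earlier results of these data known, and its members were then taken by symbol. They are the Nduf genes of complex I, the 4 Sdh genes of complex II and the Uqcr genes of complex III. The Cox4 to Cox8 genes of complex IV without Cox8b, and the Atp5 genes, complete the set. This rule gave 91 of the 37324 gene names on the array, measured by 142 of 56605 probes. They comprise 36 genes of complex I, 4 of complex II, 8 of complex III, 17 of complex IV (with Ndufa4 and Ndufa4l2 counted here), 15 of ATP synthase and 11 that are not subunits. Among the last are 8 assembly factors (Ndufaf1 to Ndufaf7 and Atp5sl), Cox7a2l, Atp5s and the pseudogene Atp5c1-ps. Current RefSeq symbols are Dmac2 for Atp5sl, Atp5pb for Atp5f1 and Dmac2l for Atp5s, and the names of the array are used here.

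Complexes I and II pass electrons from NADH and succinate to ubiquinone, complex III passes them on to cytochrome c, and complex IV passes them to oxygen. Complexes I, III and IV pump protons out of the mitochondrial matrix, and ATP synthase lets them return and makes ATP. Several small subunits of complex IV exist as a common form and as forms known from heart, skeletal muscle, lung or testis, while complex II has a single set of subunits in most tissues.

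Male mice were given distilled water as controls, or lead acetate in the drinking water over 3 weeks. The low dose was 100 mg/L and the high dose 1000 mg/L. The labels give no strain, age or genotype. Total RNA from small pieces of tissue, 50 ng per labelling, was hybridised to 8 Agilent 1-colour arrays on 1 slide. All 3 treatments were measured in brain and kidney, and in liver the high dose and the control. Each group was 1 array, and the labels do not say whether animals were pooled or whether the tissues came from the same animals.

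A level is the log2 of the processed scanner signal minus the 75th percentile of its own array, so a level is comparable for 1 probe across arrays and not between probes. The share of spots above background by the scanner's criterion ("well above background") was 53.4% to 67.1%, and the 75th percentile of the signal lay between 427 and 954. Brain markers (8 genes) had median levels of 3.50 to 3.66 on the brain arrays and of -2.76 or lower on the others. Kidney markers lay between 4.79 and 4.88 on the kidney arrays and at -4.33 or lower elsewhere, and liver markers at 8.56 and 8.73 on the liver arrays and at -2.12 or lower elsewhere. Of the 91 members, 88 were well above background on all 8 arrays, and none was saturated. The exceptions were the complex IV isoforms Cox6a2, Cox7b2 and Cox8c.

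Common and restricted isoforms of complex IV were read by separate probes, and the first 30 bases of each 60-base probe are shown for the 4 isoform pairs that the results return to. They are written 5′ to 3′ in lower case with no part in capitals, since the longest run that the full probes of a pair share is 4 to 7 bases.
Cox7a1: acaacgtcctgtacagactgaccatgacgc
Cox7a2: ttcccaagaagcagaactaatgtcgtcatc
Cox6a2: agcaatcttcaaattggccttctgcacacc
Cox6a1: ggaccacgaaaaccctttggatgctaagct
Cox6b2: ggaactttcccgggcaaaatatgaccttgc
Cox6b1: aggagtcaggatggctgaagacatcaagac
Cox8c: gcatcatatggacgacgaacataatctgct
Cox8a: tattggctctgcttggtggggtcccccttt
In the mm9 coordinates of the array files the Cox7a1 probe spans chr7:30970337-30970948, the Cox6a2 probe chr7:135349160-135349219, the Cox6b2 probe chr7:4703488-4703547 and the Cox8c probe chr12:104138678-104138736. The probe of Cox7a1 covers 612 genomic bases for its 60 bases. Exon and UTR annotation of mm9 was not used here.

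The first question was how the set differs between tissues. Nearly all members were lower in brain than in kidney, in every complex, and complex II and complex III were the furthest apart. In the limma fit on all 8 arrays, with tissue and dose as factors, 87 of 88 members were lower in brain and 1 was higher at an adjusted p under 0.05. Among the 17448 genes of the fit, 51.7% were lower in brain and 29.1% higher. The median difference of the members was -1.26 (log2), against -0.28 for all genes. The 3 brain arrays had median member levels of 4.87, 4.90 and 4.84, and the 3 kidney arrays had 6.11, 6.07 and 6.13 (control, low and high dose each). Every brain array lay below every kidney array for 87 of the 88 members, and above for 1. Over all 17448 genes the arrays of brain and kidney did not overlap for 84.6%, and every brain array was the lower for 53.7%. The SD over the arrays of a tissue was 0.03 in both brain and kidney for the median member. The arrays that serve as replicates of a tissue differ in dose, and their spread may be partly technical. The tissue pieces also differed in markers of regions within or beside the organ. Against the control of the tissue, striatum markers had a median of 1.59 at the low dose in brain (10 of 10 passed the size rule given with the dose results), and hippocampus markers one of -1.20 (4 of 8). Choroid plexus markers had a median of -1.62 at the high dose in brain (7 of 9). Adrenal markers had medians of -1.63 at the low dose (2 of 4) and -1.65 at the high dose (3 of 6) in kidney. The part of these regions in the difference between tissues was not tested. In pieces of whole tissue, fewer cells of a type and less RNA per cell cannot be told apart.

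**Figure D1:**
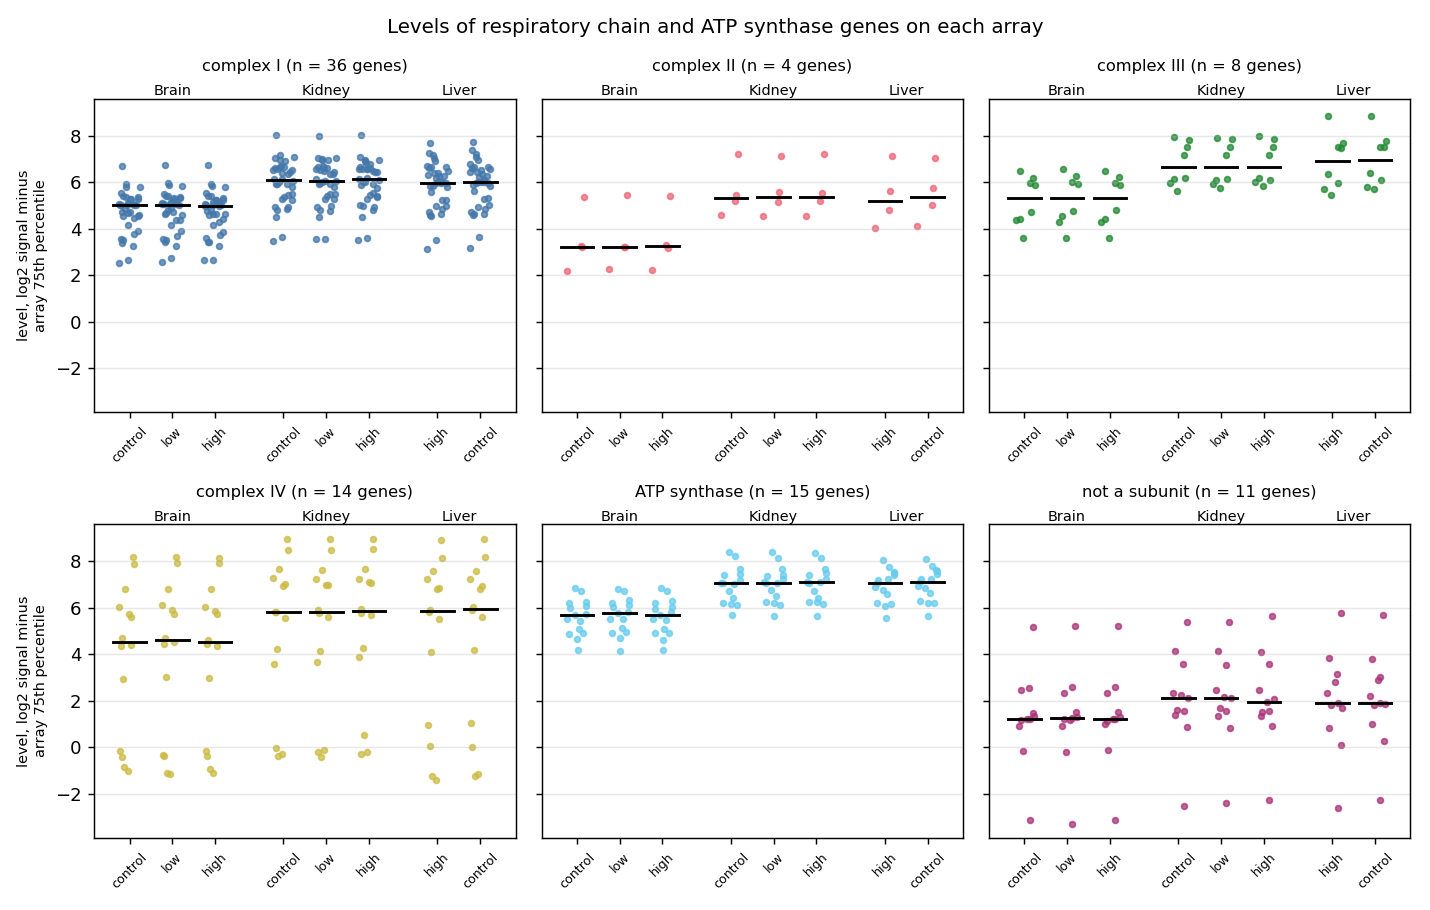
Level (log2 signal minus the 75th percentile of the array) of each member well above background on all 8 arrays, in 1 panel per complex, by tissue and dose. Points are genes and bars are medians. In complex I the medians are 4.96 to 5.03 on the brain arrays, 6.06 to 6.12 on the kidney arrays and 5.98 to 6.02 on the liver arrays.

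The difference between brain and kidney had a median of -2.11 in complex II (4 of 4 lower), -1.53 in complex III (8 of 8), -1.41 in ATP synthase (15 of 15), -1.22 in complex I (36 of 36) and -1.16 in complex IV (14 of 14). The 11 genes that are not subunits had a median of -0.79, with 10 lower and 1 higher. The 14 genes of complex IV leave out Cox6a2, Cox7b2 and Cox8c, which were not well above background on all arrays. The order of the complexes was not tested.

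Complex II, succinate dehydrogenase, also works as an enzyme of the citric acid cycle. Sdhc, a membrane anchor of the complex, had levels of 2.18, 2.24 and 2.23 in brain (control, low and high dose). In kidney it had 4.56, 4.55 and 4.54, a difference of -2.33 (SE 0.05, adjusted p = 3.54e-09), or 5.04 times lower in brain. Sdhd, the other membrane anchor, had 3.20, 3.22 and 3.18 in brain, against 5.44, 5.56 and 5.53 in kidney, and was 4.95 times lower in brain. The arrays of the tissues did not overlap for either gene. The flavoprotein subunit Sdha differed by -1.91 and the iron-sulfur subunit Sdhb by -1.79. Sdha has 4 probes well above background on all arrays, whose differences ran from -1.91 to -0.44. The probe of Sdhd lies at chr9:50404630-50404689 and that of Sdhc at chr1:173059539-173059598 (mm9).

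In complex III the Rieske iron-sulfur protein Uqcrfs1 was the most different. It had levels of 3.61, 3.58 and 3.58 in brain and 5.62, 5.73 and 5.82 in kidney, a difference of -2.13 (SE 0.08, adjusted p = 9.24e-08). The small subunit Uqcr10 followed at -1.95 and Uqcrb at -1.67. The core proteins Uqcrc1 and Uqcrc2 differed by -1.38 and -1.65. Uqcr11, at -1.20, was the member of complex III with the smallest difference.

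In complex I the 7 core subunits, which carry the redox centres, had a median of -1.36 and the 29 accessory subunits one of -1.20. Among core subunits Ndufs1 differed by -1.57, Ndufs8 by -1.47 and Ndufs7 by -0.98. A second probe of Ndufs1 gave -0.16, so its place among them rests on the probe chosen. The accessory subunit Ndufa1 had the largest difference of the complex, with 4.68, 4.88 and 4.64 in brain and 6.37, 6.46 and 6.57 in kidney (-1.74). Ndufs5, another accessory subunit, had the smallest, with 5.36, 5.37 and 5.31 in brain and 5.77, 5.78 and 5.76 in kidney (-0.42, adjusted p = 9.34e-06), and it turned to 0.10 under quantile normalization. With 75th percentile scaling its arrays of the tissues still did not overlap.

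In ATP synthase the catalytic F1 subunits Atp5b and Atp5a1 differed by -1.56 and -1.45. Atp5b had 6.85, 6.82 and 6.83 in brain and 8.42, 8.39 and 8.38 in kidney. The 3 genes that encode the same membrane subunit c differed unequally: Atp5g3 by -1.90, Atp5g2 by -1.33 and Atp5g1 by -1.14. Further probes of Atp5g3 and Atp5g1 gave -0.92 and 0.20, so the order of these genes rests on the probe chosen. Atp5h, a subunit of the peripheral stalk, had the smallest difference of the complex at -0.87.

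Of the genes that are not subunits, Ndufaf5, an assembly factor of complex I, was higher in brain than in kidney. It was the only one to be so among the 88 members well above background on all arrays. It had levels of 1.49, 1.53 and 1.54 in brain and 0.89, 0.83 and 0.93 in kidney (0.64, SE 0.07, adjusted p = 5.25e-05), and 0.10 at the high dose and 0.26 in the control in liver. A second probe of Ndufaf5 gave -0.11 between brain and kidney. Ndufaf6, which also assembles complex I, went the other way with -0.15, -0.19 and -0.12 in brain and 1.59, 1.68 and 1.53 in kidney. Cox7a2l, which takes part in joining complexes into supercomplexes, differed by -0.28, and its direction turned under quantile normalization (0.23).

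The probes of 32 members could be compared with a second probe of the same gene. For 27 of them every probe was lower in brain than in kidney, and the median spread between probes was 0.27. The spread exceeded 1 for 9 members. It was largest for Ndufa13, where a second probe that the files describe as YjeF N-terminal domain containing 3 gave 1.76 against -1.27, and for Ndufab1 (-4.34 against -1.36).

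Genes around the chain were read from lists of assembly factors, carriers, regulators and other mitochondrial proteins. Cytochrome c itself (Cycs) was lower in brain than in kidney by 2.26 on the log2 scale and cytochrome c1 (Cyc1) by 1.67. All 13 enzymes of the citric acid cycle were lower, among them Suclg2 (-4.70), fumarase Fh1 (-2.09) and citrate synthase Cs (-0.45). Of 14 other mitochondrial proteins 12 were lower, with the chaperonin Hspd1 at -2.57, and the fusion protein Opa1 was higher (0.83). Of the further assembly factors tested, 18 of 19 for complex IV, 8 of 9 for complex I, 4 of 4 for ATP synthase, 3 of 4 for complex II and 3 of 5 for complex III were lower, while 51.7% of all genes were. The complex III factors Ttc19 (1.83) and Uqcc2 (1.34) and the complex I factor Acad9 (0.22) were higher. Among 12 regulators of mitochondrial gene expression, 9 were lower in brain, including the nuclear receptor Esrra (-1.65), the ETS factor Gabpa (-1.44), the mitochondrial transcription factor Tfam (-1.20), the coactivator Ppargc1a (-0.98) and Nrf1 (-0.54). Gabpb1 (0.21) and Pprc1 (0.22) were higher, and Yy1 stood at -0.01 (adjusted p = 0.92).

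The promoters of the members were searched for the letters bound by factors known for these genes. Of the members 74 matched a RefSeq promoter window (GRCm38.p6), which runs from 250 bases before to 50 after the gene start. Both strands were searched. The palindromic core of the NRF1 site, CGCATGCG, was found in 11 windows (14.9%, against 2.77% of 17492 coding genes). The ETS letters CCGGAAG were found in 17 (23.0% against 12.9%) and the YY1 letters AAGATGGC in 11 (14.9% against 3.57%). The ETS and YY1 letters can overlap by AAG. At least 1 of the 3 was found in 33 members (44.6%, against 17.8% of coding genes). These are shares of windows that hold the letters, not binding sites. The 250 bases before the start of Cox6a1, a common subunit of complex IV, hold the NRF1 core and the reverse complement of the ETS letters, both in capitals. They are shown on the minus strand of chr5:115348959-115349208, above those of the restricted isoform Cox7a1 on the plus strand of chr7:30183921-30184170, which hold none of the 3 (both GRCm38.p6). The window of Cox7a2, the common counterpart of Cox7a1, holds none either. Nor do those of the common subunits Cox5a, Cox7b, Cox7c and Ndufa4, so the pair shown is no rule for common and restricted forms.
Cox6a1: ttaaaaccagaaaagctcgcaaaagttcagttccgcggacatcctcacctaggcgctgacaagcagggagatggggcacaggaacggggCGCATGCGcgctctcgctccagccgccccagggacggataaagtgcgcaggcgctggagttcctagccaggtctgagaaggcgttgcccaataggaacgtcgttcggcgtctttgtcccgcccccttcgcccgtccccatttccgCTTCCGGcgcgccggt
Cox7a1: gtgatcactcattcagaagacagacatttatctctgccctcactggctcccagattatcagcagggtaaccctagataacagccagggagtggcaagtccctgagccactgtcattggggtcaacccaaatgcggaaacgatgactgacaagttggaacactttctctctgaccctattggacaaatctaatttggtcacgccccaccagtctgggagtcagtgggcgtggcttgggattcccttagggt

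Brain was also lower than liver for most members, but the size of this difference, and the direction between kidney and liver, depended on how the arrays were scaled. Against liver, 84 of 88 members were lower in brain and 2 higher (58.1% and 27.4% of all genes), with a median of -1.20. Under quantile normalization 46 were lower and 25 higher (53.2% and 32.6% of all genes), with a median of -0.15. Between kidney and liver, 37 members were higher in kidney and 21 lower (27.1% and 46.8% of all genes), with a median of 0.07. Under quantile normalization 82 were higher in kidney and 2 lower (33.4% and 38.1% of all genes), with a median of 0.71. Between brain and kidney the median stayed below 0 under all 4 scalings, from -1.55 with median scaling to -0.83 with quantile normalization. With quantile normalization 83 members were lower in brain than in kidney and 3 higher (51.9% and 31.5% of all genes).

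**Figure D2:**
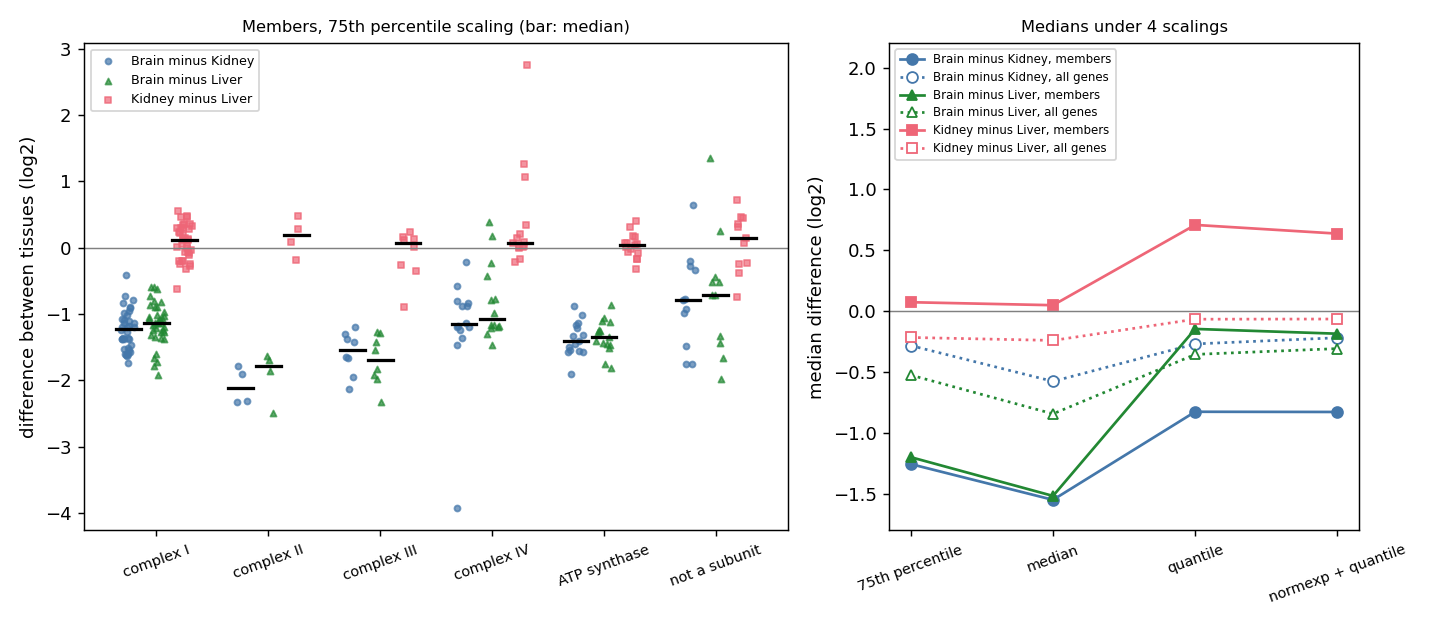
Left, difference between tissues (log2) of each member by complex, with the median as a bar. Right, the median difference of the members (filled, solid lines) and of all genes (open, dotted lines) under 4 ways of scaling the arrays. The members' median for brain minus kidney runs from -1.55 to -0.83, and that for kidney minus liver from 0.05 to 0.71.

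Some members differed more than this between kidney and liver. Uqcrq, a small subunit of complex III, had levels of 7.95, 7.91 and 7.98 in kidney (control, low and high dose) and 8.83 at the high dose and 8.85 in the control in liver. The difference between kidney and liver was -0.90 (SE 0.04, adjusted p = 1.29e-06), but 0.15 under quantile normalization. Ndufa7, an accessory subunit of complex I, differed by -0.62, which quantile normalization brought to 0.0095, and the assembly factor Ndufaf1 differed by -0.74. On the other side were Ndufb4 (0.55), Ndufb8 (0.48) and Sdhc (0.48), which were higher in kidney than in liver. Against liver, the members furthest below in brain were Sdhd (-2.50), Uqcrq (-2.32), Ndufaf6 (-1.98) and Uqcrfs1 (-1.98).

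Among the members, the widest differences between tissues were those of Cox7a1 and Cox6a2, restricted isoforms of complex IV. Cox7a1, the form of subunit 7a known from heart and skeletal muscle, had levels of -0.16, -0.33 and -0.17 in brain (control, low and high dose) and 3.58, 3.65 and 3.89 in kidney. In liver it had 0.95 at the high dose and 1.06 in the control. Its arrays separated all 3 tissues. Brain was lower than kidney by 3.93 on the log2 scale (SE 0.08, adjusted p = 5.66e-09), or 15.2 times, and kidney was 6.71 times higher than liver (2.75 in log2, SE 0.10, adjusted p = 2.19e-07). Its common counterpart Cox7a2 averaged 5.68 ± 0.06 in brain and 7.04 ± 0.03 in kidney (SD, n = 3 each), a difference of -1.35, with 6.85 at the high dose and 6.92 in the control in liver.

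Cox6a2, the heart and skeletal muscle form of subunit 6a, ran in another order. It had 1.06, 1.25 and 1.18 in brain and -0.06, -0.14 and 0.11 in kidney, and it was not well above background on either liver array. With the members dim in 1 tissue included in the fit, brain was higher than kidney by 1.20 (SE 0.10, adjusted p = 3.97e-05). Against liver the level was at least 35.1-fold higher in brain and at least 15.3-fold higher in kidney. These bounds set the mean of the bright tissue against the faintest detected signal of each liver array, or against the dim probe's own value where that was higher. The common form Cox6a1 had 8.17, 8.19 and 8.14 in brain, against 8.98, 8.96 and 8.97 in kidney (-0.80), the opposite direction. Of 10 skeletal muscle markers, Ckm and Mb were on no array well above background. Between 7 and 8 were well above it on the brain arrays, and 5 on each of the kidney and liver arrays. Summed over the list, their log2 level ranged over 3.77 to 3.89 in brain, 3.62 to 3.71 in kidney and 0.34 to 0.62 in liver. Pvalb, which is also made by neurons and kidney tubules, had 3.62 to 3.75 in brain, 3.56 to 3.65 in kidney and -0.44 at the high dose and -0.77 in the control in liver. The part of these markers in the level of Cox6a2 was not tested.

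The remaining restricted forms were Ndufa4l2, Cox4i2 and Cox7b2, besides Cox8c and Cox6b2, which are described with the dose results. Ndufa4l2, a relative of Ndufa4 known to respond to hypoxia, had -1.01, -1.13 and -1.12 in brain and -0.29, -0.13 and -0.20 in kidney (-0.88, adjusted p = 6.40e-05), and kidney was higher than liver by 1.06. Ndufa4 itself differed by -1.47 between brain and kidney. Cox4i2, the form of subunit 4 known from lung, differed by -0.22 (SE 0.09, adjusted p = 0.0439). It lost that call with any of 5 of the 8 arrays left out, where the difference lay between -0.26 and -0.13. The common Cox4i1 differed by -0.84. Cox7b2 had -3.52, -3.41 and -3.10 in brain, -4.68 (not well above background), -4.29 and -4.30 in kidney, and -2.23 at the high dose and -2.63 in the control in liver. In the limma fit that included members dim in 1 tissue, Cox7b2 was higher in brain than in kidney by 1.08 (SE 0.15, adjusted p = 0.000535). The common Cox8a, with 7.87, 7.94 and 7.94 in brain and 8.51, 8.47 and 8.51 in kidney, differed by -0.58 and turned to 0.15 with normexp background correction and quantile normalization.

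**Figure D3:**
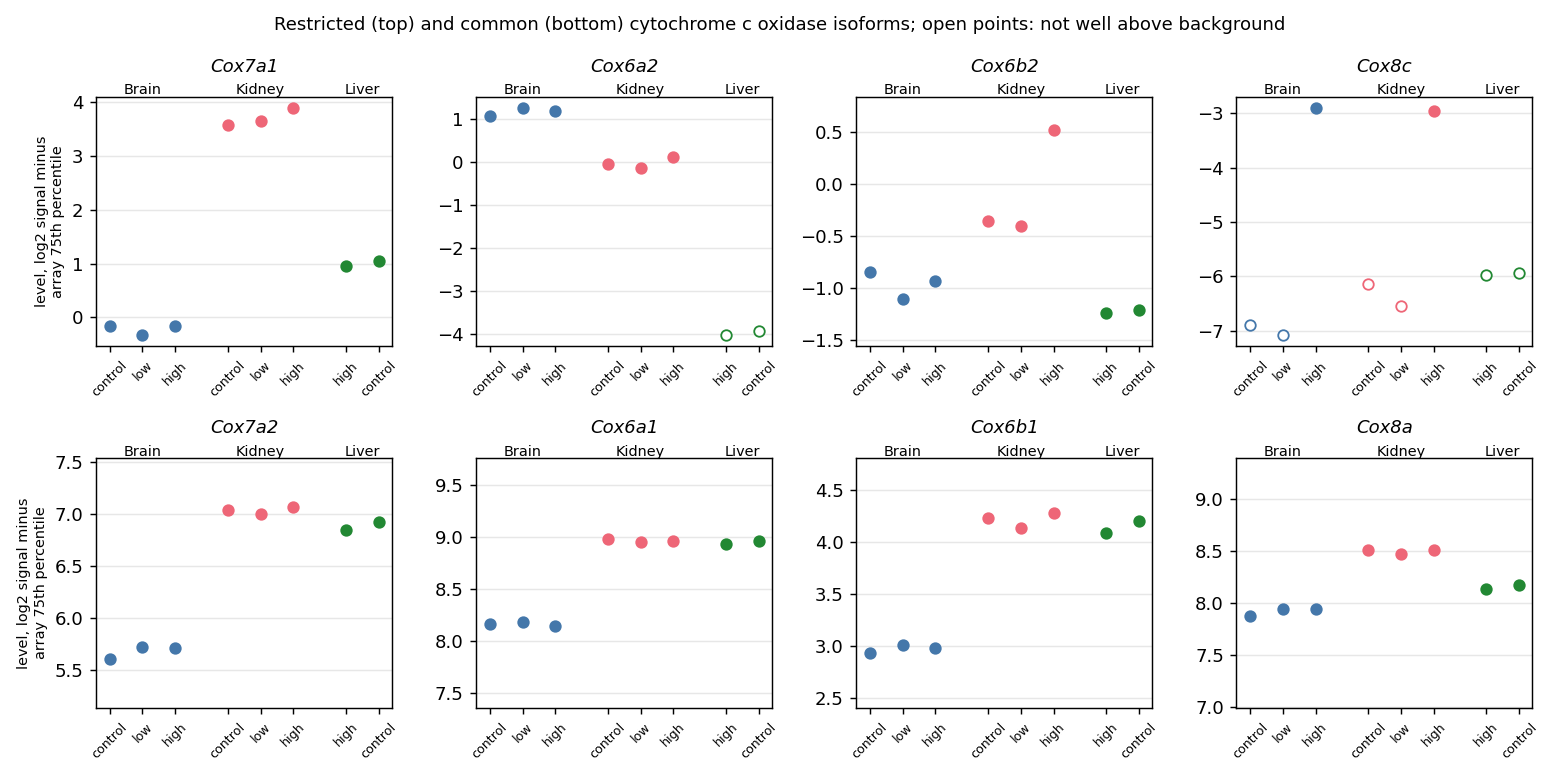
Levels of 4 restricted isoforms of complex IV (top) and their common counterparts (bottom) on the 8 arrays, each gene on its own axis (log2 signal minus the 75th percentile of the array). Open points are not well above background. Cox7a1 is highest in kidney, Cox6a2 is highest in brain, and Cox8c is well above background on the high-dose arrays of brain and kidney alone.

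The second question was whether lead moved these genes away from the control of each tissue. No member passed the size rule in any of the 5 comparisons. That rule asks for a log2 difference of at least 1, more than 3 times the array error, with both spots well above background and not saturated. With 1 array per group there is no replicate check and no p-value within a tissue. The array error is that of the scanner software and was not measured between arrays. It was 0.20 for the median member and 0.21 for the median gene in each comparison, so it works nearly as a fixed cut.

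In kidney at the high dose 0 of 89 measured members passed, against 1.66% of 21353 genes. The members' median difference was 0.01, against -0.03 for all genes, and their SD was 0.13, against 0.33 for all genes. Above the control lay 57 members and below it 32 (44.0% and 56.0% of all genes). The split was 67 and 22 with quantile normalization (46.2% and 53.8%), and 47 and 42 with the mean of probes (43.6% and 56.4%). Of the 89 members 7 differed by more than the array error, as did 29.8% of all measured genes, whatever their signal level. They were Cox6b2 (0.87), Cox7a1 (0.31), Cox7a2l (0.26) and Atp5s (0.26) on the higher side and Ndufaf1 (-0.28), Ndufv3 (-0.25) and Cox4i2 (-0.25) on the lower. In kidney at the low dose 0 of 89 passed (0.492% of all genes), the median was -0.004, and no member differed by more than its array error (17.4% of all genes did). Above the control lay 41 members and below it 48 (47.8% and 52.2% of all genes), but 73 and 16 with median scaling (64.0% and 36.0%). The values there ran from -0.18 for Cox4i2 to 0.17 for Ndufa4l2.

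In brain at the high dose 0 of 90 passed (0.452% of all genes), with a median of 0.0002. There 45 members lay above and 45 below the control (49.1% and 50.9% of all genes), but 25 above and 65 below with median scaling (39.2% and 60.8%) and 33 and 57 with normexp (44.0% and 56.0%). Cox7b2 (0.41) was the member that differed by more than its array error, and 17.4% of all genes did. At the low dose 0 of 90 passed (0.745% of all genes), with a median of 0.03. There 60 members lay above and 30 below the control (49.5% and 50.5% of all genes). The split was 45 and 45 with normexp (46.3% and 53.7% of all genes), with a median of -0.0009. It was 52 and 38 with quantile normalization (47.3% and 52.7% of all genes). Cox6b2 (-0.26) went beyond its array error, as did 19.3% of all genes, and Ndufa1 was the highest at 0.20.

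In liver at the high dose 0 of 89 passed (0.804% of all genes). There 77 of 89 members lay below the control and 12 above, against 53.9% of all genes below, and 61.4% of genes with a mean level of at least 3. The members had a median of -0.05, against -0.02 for all genes. The array error of 0.20 is that of a single gene and does not measure the uncertainty of this median. The split was 49 below and 40 above with quantile normalization (50.9% and 49.1% of all genes), where the median was -0.007. With normexp it was 54 below and 35 above (51.0% and 49.0% of all genes). The split stayed at 74 below and 15 above with median scaling (52.9% and 47.1% of all genes). With the mean of probes it was 70 below and 19 above (53.6% and 46.4% of all genes). The lowest were Atp5s (-0.33), Ndufa4l2 (-0.28), Uqcrfs1 (-0.25) and Sdha (-0.22), and Cox7b2 was the highest (0.40).

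The SD of the members' differences was also smaller than that of all genes of high signal. Among genes with a mean level of at least 3, the SD of the differences was 0.08 for 76 members and 0.18 for 2713 genes in kidney at the high dose. It was 0.05 and 0.10 in brain at the high dose, and 0.06 and 0.17 in liver at the high dose. By the size rule, 12 of the 2713 genes were higher and 1 lower in kidney at the high dose, and 0 either way at the low dose. In brain 2 were higher and 2 lower at the high dose, and 0 higher and 1 lower at the low dose. In liver at the high dose 3 of 2714 were higher and 3 lower. The absence of calls among the members stands beside these low counts. These counts, shares and SDs describe single pairs of arrays.

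**Figure D4:**
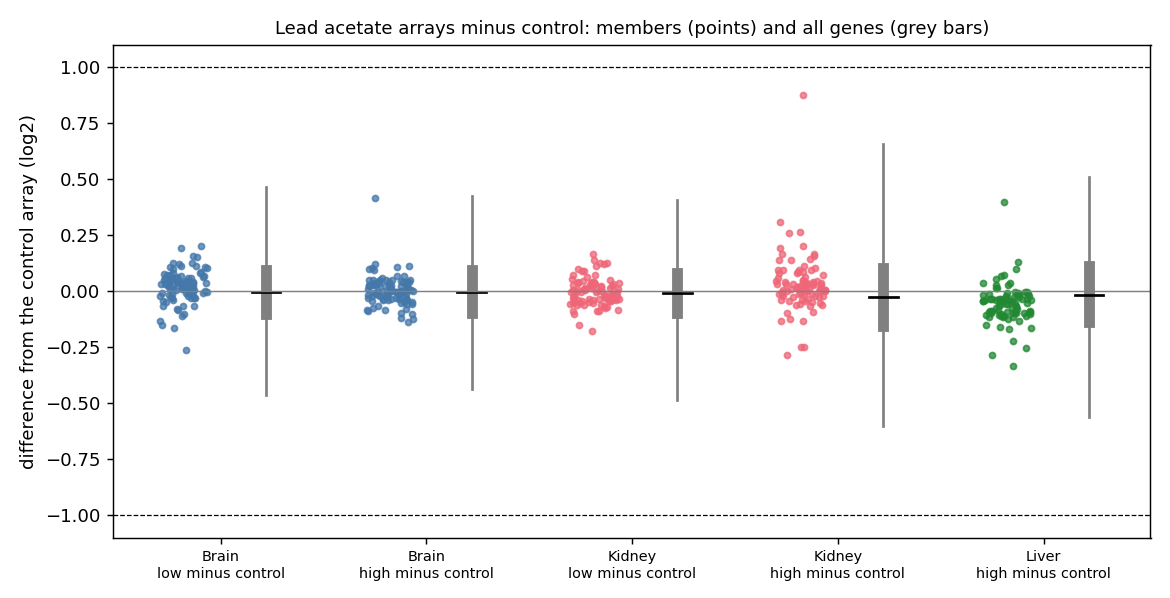
Difference from the control array of the same tissue (log2) for each measured member (points). Grey bars give the middle 50% of all genes (thick) and their middle 95% (thin), with the median in black, and dashed lines mark a difference of 1. All members lie inside the dashed lines, from -0.33 (Atp5s in liver) to 0.87 (Cox6b2 in kidney at the high dose).

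Over the tissues together, limma called 0 of 88 members at the high dose and 0 at the low dose, with 0.0% of 17448 genes called in both. At an unadjusted p under 0.05 there were 1 member and 1181 genes at the high dose, and 0 members and 421 genes at the low dose. At the low dose the members' median effect was -0.005, with a range of -0.23 to 0.12. At the high dose it was -0.01, with a range of -0.13 to 0.25.

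Cox8c and Cox6b2, the forms of subunits 8 and 6b known from testis, were the exceptions in signal. Cox8c was well above background on 2 of the 8 arrays, those of the high dose in brain and kidney. In brain it had -6.90, -7.08 and -2.90, and in kidney -6.14, -6.54 and -2.95 (control, low and high dose each). In liver it had -5.98 at the high dose and -5.93 in the control, both not well above background. Its level at the high dose was at least 4.09-fold higher than the control in brain and at least 3.72-fold higher in kidney. The common form Cox8a differed from its control by less than its array error in both comparisons.

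Cox6b2 had -0.36, -0.41 and 0.52 in kidney (control, low and high dose), -0.85, -1.11 and -0.93 in brain, and -1.24 at the high dose and -1.21 in the control in liver. The high-dose kidney array was the highest of the 8. Its difference of 0.87 fell short of the size rule, and Cox6b1, the common form, had 4.23, 4.13 and 4.28 in kidney.

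Sperm markers moved on the high-dose arrays of brain and kidney, where Cox8c was well above background. Cox6b2 was higher there in kidney, but in brain it differed from its control by -0.09, less than its array error. The protamine Prm1 had -3.12, -3.99 and 2.42 in brain and -0.09, -1.46 and 3.33 in kidney (control, low and high dose), and -1.79 at the high dose and -2.14 in the control in liver. Of the 10 markers 6, 5 and 8 were well above background in brain, 9, 7 and 9 in kidney, and in liver 6 at the high dose and 4 in the control. Summed over the list, their log2 level was -0.57, -0.63 and 3.45 in brain. In kidney it was 4.37 at the high dose and 0.46 at the low dose, with the control between them, and in liver 0.42 at the high dose and 0.28 in the control. Odf1 was not well above background on any array, nor was Cyct, the cytochrome c of testis. The part of sperm RNA in the signal of Cox8c and Cox6b2 was not tested.

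**Figure D5:**
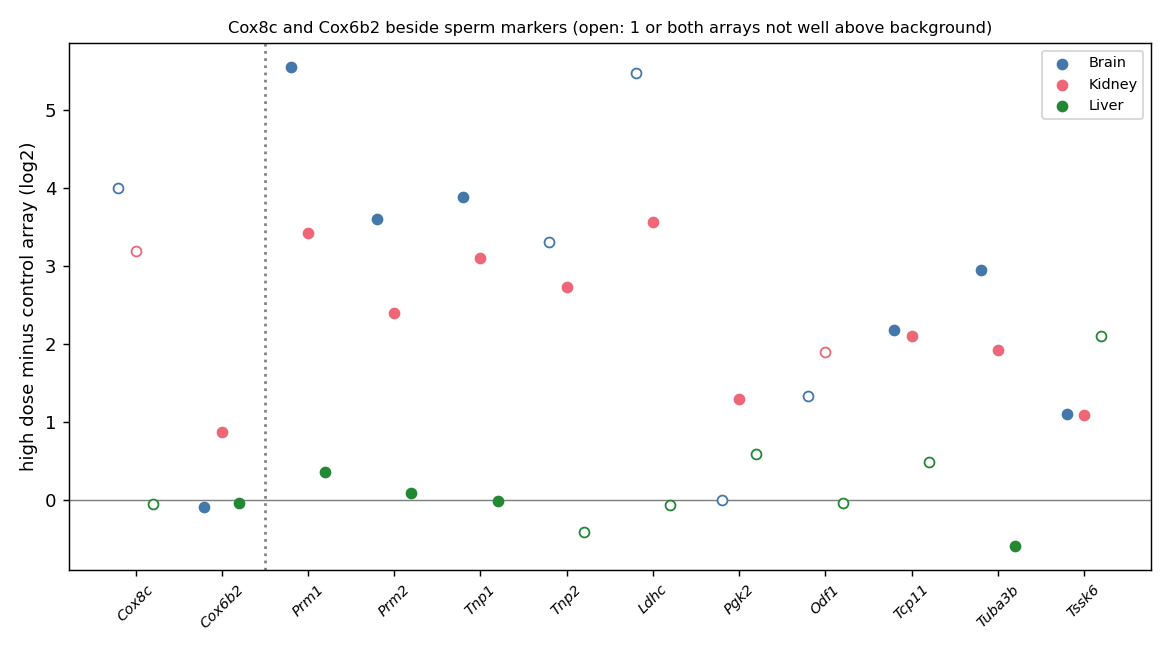
High-dose array minus control array (log2) in brain, kidney and liver for Cox8c and Cox6b2 (left of the dotted line) and 10 sperm markers. At open points 1 or both arrays are not well above background, so their height is no measured fold, as for Cox8c in all 3 tissues (at least 2.03 in brain and 1.90 in kidney). Prm1 lies at 5.54 in brain, 3.42 in kidney and 0.35 in liver.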

How the data were processed

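Spot intensity in the deposited scanner files had its background subtracted and its spatial trend removed, with no scaling from array to array, per the file headers. The submitters' processing notes name Agilent Feature Extraction (12.0.3.1). The deposited value table is the same intensity over a constant near each array's 75th percentile. Its scale and direction are therefore known, and it was not used further. Its column medians were 0.112, 0.113 and 0.114 (brain), 0.0940, 0.0905 and 0.0936 (kidney; control, low and high dose each), and 0.0918 and 0.0915 (liver; high dose and control).

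Control spots and flagged spots were left out, log2 intensity was centred on each array's 75th percentile, and the probe with the highest mean over the arrays stood for its gene. RefSeq names (GRCm38.p6) matched 112 of the 142 member probes. The array error adds the relative errors of both spots in quadrature. Tissue and dose entered 1 limma model (limma 3.58.1, R 4.3.3, intensity trend, 3 residual degrees of freedom, Benjamini-Hochberg over 17448 genes), tested on simulated data. Python 3.11.15 was used otherwise. Alternatives were median scaling, quantile normalization, normexp (offset 50), probe means, other filters and leaving out each array. Named genes were isoforms, the largest differences per comparison, the extremes of each complex, and members dim on an array. Others, such as the core subunits of complexes I and III, were chosen after their values were seen. The members and lists were chosen with earlier results of these data known. The number of arrays limits the precision.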

Additional observations from a re-analysis of the deposited data

How the results depend on the processing

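Brain minus Kidney kept its direction for the members' median under every alternative, at -1.55 with median scaling, -0.83 with quantile normalization, -0.83 with normexp and quantile normalization, -1.20 with the mean of probes and -1.29 on the control arrays alone. With 1 array left out it ran from -1.30 to -1.25. Its count of members higher in brain, 1, became 3 with quantile normalization, 4 with normexp, 2 with the mean of probes and 3 with members dim in 1 tissue included. The members' median relative to all genes was -0.97, and -0.56 and -0.61 with quantile normalization and normexp. Brain minus Liver had a median of -1.52 with median scaling (1 member higher), -0.15 with quantile normalization (25 higher, 46 lower), -0.19 with normexp (15 higher, 53 lower) and -1.24 on the control arrays alone. With 1 array left out the median ran from -1.24 to -1.17, with 1 member higher without the high-dose liver array and 3 without the high-dose kidney array. Kidney minus Liver had a median of 0.71 with quantile normalization (82 higher, 2 lower) and 0.64 with normexp (81 higher, 2 lower), and with 1 array left out from 0.014 (without the high-dose liver array) to 0.12 (without the control liver array, where 14 members were lower, against 21 with it). The cause of the dependence on scaling was not tested.

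Of 55 single tissue differences followed, these turned: for Brain minus Kidney, Cox7a2l (0.23 quantile, 0.22 normexp), Ndufs5 (0.10, 0.11) and Cox8a (0.15 normexp); for Brain minus Liver, Ndufaf3 (-0.072 with median scaling); for Kidney minus Liver, Atp5g1 (0.56, 0.42), Ndufa6 (0.41, 0.30), Ndufs6 (0.52, 0.49), Uqcr11 (0.53, 0.43), Ndufa7 (0.0095 quantile) and Uqcrq (0.15 quantile). Against the controls, 0 members passed the size rule under all alternatives except in kidney at the high dose without the filter on dim probes (1 member, Cox8c). The limma dose effects stayed at 0 members. No paired analysis was possible because each group holds 1 array and the labels tie no samples of different tissues to 1 animal. Dose is a term of the model, and without it 87 members were lower and 1 higher in brain than in kidney.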
